A study of Mus musculus with 10 samples.

Results

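The genes described are Myc, its partner Max, the Max-binding antagonists Mxd1, Mxd3, Mxd4, Mxi1 and Mnt, and the related factor Mlx. They were chosen by name, as 8 of the 17658 genes in the deposited table, and all 8 were found there. Levels were measured by RNA sequencing of B cells that had been enriched magnetically from spleen and lymph node of C57BL/6 mice aged 10 weeks, carrying either the wild-type Nr4a1+/+ genotype or labelled Nr4a1-/-. Nr4a1 (Nur77) is an orphan nuclear receptor gene switched on by antigen receptor signals, and the labels do not describe its knockout allele, nor say whether each library came from a separate mouse. Each genotype gave 1 library without an added agent and 4 libraries, lettered A to D, after 2 hours with anti-IgM at 10 µg/mL, an antibody that crosslinks the B cell receptor. The labels give no time in culture for the libraries without an agent. A change with anti-IgM therefore cannot be told apart from a change with 2 hours in culture. The series set out to look for induced genes whose expression depends on genotype. Libraries labelled Nr4a1-/- are called knockout-labelled below. Without separate animals stated, p-values measure the spread between these libraries, which may be technical.

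Myc is a basic helix-loop-helix leucine zipper transcription factor that binds DNA as a pair with Max and raises genes of ribosome building, metabolism and cell growth. The Mxd proteins, Mxi1 and Mnt pair with the same partner, bind the same sites (E-boxes, of which CACGTG is the classical form) and recruit Sin3 and histone deacetylase corepressors, so they oppose Myc. Mlx is a relative of Max that pairs with Mlxip (MondoA), Mlxipl (ChREBP), Mnt and some Mxd proteins. In B cells, antigen receptor engagement is a known inducer of Myc, and Mxd genes are known for their expression in resting and differentiating cells.

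In GENCODE M21 on GRCm38 the members are protein-coding genes at chr15:61985391-61990374 (Myc), chr12:76937269-76962201 (Max), chr6:86647042-86669161 (Mxd1), chr13:55325168-55329823 (Mxd3), chr5:34173883-34187720 (Mxd4), chr19:53310518-53375810 (Mxi1), chr11:74830920-74845725 (Mnt) and chr11:101087277-101092207 (Mlx). The E-box is shown first because it stands in the promoters of members that moved in different directions. The RefSeq promoter table (GRCm38.p6, a fixed window around each transcript start) had an entry for 7 members, with none for Myc. The letters CACGTG, a palindrome searched on both strands, were found in 4 of the 7, and 12.8% of the 7462 tested genes with an entry held them. The 30 bases around each match follow, 5′ to 3′ on the gene's own strand, with the E-box in capitals. The windows lie at chr12:76962234-76962263 for Max and chr5:34187912-34187941 for Mxd4 (minus strand), and at chr11:74830789-74830818 for Mnt and chr11:101087238-101087267 for Mlx (plus strand).
Max: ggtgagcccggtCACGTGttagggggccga
Mxd4: gggctgggccacCACGTGctgttgctaagc
Mnt: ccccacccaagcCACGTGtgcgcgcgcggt
Mlx: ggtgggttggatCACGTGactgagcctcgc
The first base of the E-box lay 3 bases before the table's transcript start in Max, 40 in Mlx, 123 in Mnt and 219 in Mxd4. Of these, Mnt rose and Mxd4 and Mlx fell after anti-IgM, as described below, and Max changed little. The windows of Mxd1, Mxd3 and Mxi1, the last with 3 starts listed, held no CACGTG. The looser form CANNTG was present in 72.3% of all 32851 promoters and was not followed further. A match is a description of letters and not evidence of binding.

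The unit throughout is the authors' gene-level FPKM, which divides fragments by transcript length and by the library's mapped fragments. Summed FPKM ran from 557214 to 571784 over the stimulated libraries, against 674961 (wild type) and 595500 (knockout-labelled) without stimulation. The absolute depth is unknown. Relative depth lay between 0.91 and 1.07, as estimated from 30 of 67 low genes searched, those whose values came within 6% of whole multiples of a step. The 9 B cell markers summed to 4410 and 4214 FPKM without stimulation and to between 1675 and 1795 FPKM after anti-IgM, and the 6 plasma cell markers to 201.1 and 205.4 FPKM and then to between 1046 and 1111 FPKM in wild type and between 1132 and 1191 FPKM in knockout-labelled libraries. The T cell marker sum was 19.0 and 26.3 FPKM unstimulated, then 45.97 to 50.02 FPKM in wild type and 66.2 to 68.9 FPKM in knockout-labelled libraries. Without stimulation it rested on Lck, as 7 of the 8 markers were under 1 FPKM. Of these, Cd3e, Cd3d, Cd3g, Cd4, Cd8a and Thy1 were each under 1 FPKM in every library. After anti-IgM only 6 of the 8 stayed under 1 FPKM, so a marker besides Lck also reached it in each genotype. Myeloid sums lay between 26.4 and 132.9 FPKM, erythroid sums between 7.79 and 122.6 FPKM and NK cell sums at 2.13 FPKM or less, each of the last 3 with overlapping ranges between the stimulated genotypes. The part of these sums in the results was not tested. Nr4a1 itself was not lower in the unstimulated knockout-labelled library (126 FPKM in both) and stood at 808 ± 47.2 FPKM for wild type and 702.1 ± 44.6 FPKM for the knockout-labelled ones after anti-IgM (SD, n = 4 each). The stimulated ranges overlapped, and the log2 difference of -0.20 passed on the deposited scale (limma adjusted p = 0.0432) but not with median-of-ratios scaling (adjusted p = 0.133). Nr4a1 thus did not separate the libraries by genotype label, and directions are between libraries as labelled.

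After anti-IgM, Myc transcript rose from levels close to those of Max to far above it, Mnt rose with it, and the antagonists Mxd4 and Mxi1 and the Max relative Mlx fell. In bulk RNA, fewer cells of a type and less RNA per cell cannot be told apart. Max and Mxd1 moved little. Mxd3 stayed under 1 FPKM in every library. With limma on log2(FPKM + 1), over 2 unstimulated and 8 stimulated libraries with genotype as a term, 7 members had a mean of at least 1 FPKM and could be tested. This fit assumes the same response in both genotypes, and its SE and p-values rest on only 2 unstimulated libraries. All 7 passed at a Benjamini-Hochberg adjusted p under 0.05, 3 higher and 4 lower, where 78.9% of the 10225 tested genes passed (31.2% higher and 47.7% lower), so the count itself is near the background. When the log2 change also had to reach 1 in either direction, 5 of 7 passed, beside 20.3% of all tested genes: Myc and Mnt higher (background 7.94%) and Mxd4, Mxi1 and Mlx lower (background 12.4%). The median log2 change was -0.19 over the 7 members and -0.17 over all tested genes on the deposited scale. That shift became -0.017 with median-of-ratios scaling, so the change of each tested member is also given on that scale. Most list genes below are given on the deposited scale only.

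Myc stood at 61.5 FPKM in the wild-type library without stimulation and 88.9 FPKM in its knockout-labelled counterpart. After anti-IgM, wild-type libraries (A to D in turn) had levels of 726, 683, 740.3 and 732 FPKM, and the knockout-labelled ones held 784, 758, 827 and 768 FPKM. Every stimulated library lay far above both unstimulated ones, and the lowest knockout-labelled library lay above the highest wild-type one. The log2 change with anti-IgM was 3.33 (SE 0.0762, limma adjusted p = 4.82e-11), and 3.50 with median-of-ratios scaling. By size this was the 5th largest rise among all tested genes. The change was 3.13 without the unstimulated wild-type library and 3.53 without the knockout-labelled one. Both lie outside the 95% interval of the fit, 3.16 to 3.50.

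**Figure D1:**
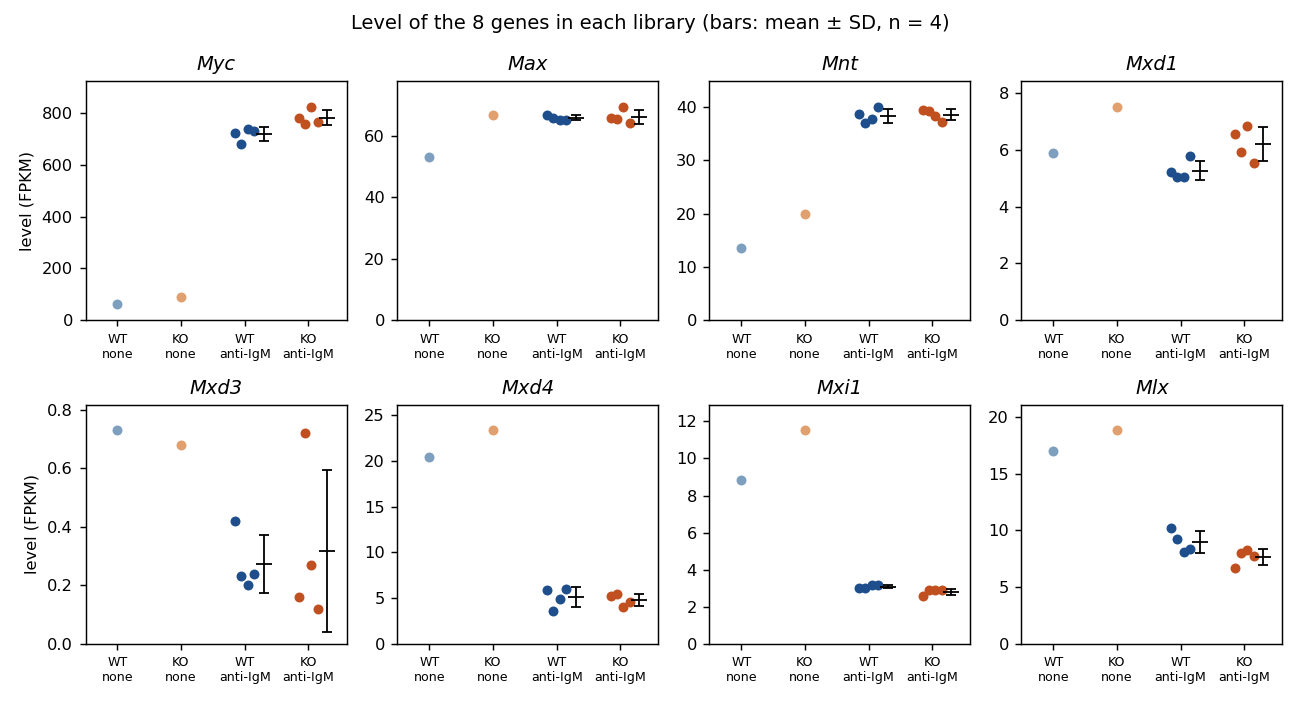
FPKM (vertical axes, each from 0) of the 8 genes in every library, by genotype as labelled (WT, wild type, and KO, labelled knockout) and treatment. Points are libraries, and bars show mean ± SD of 4. Myc and Mnt were higher and Mxd4, Mxi1 and Mlx lower in all 8 stimulated libraries than in either unstimulated library, while for Max and Mxd1 1 of the 2 unstimulated libraries lies inside the stimulated range.

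Max, the obligate partner of Myc, held 52.9 FPKM in the wild-type library without stimulation and 66.8 FPKM in its knockout-labelled counterpart. Stimulated libraries ranged from 65.1 to 66.8 FPKM in wild type and from 64.1 to 69.4 FPKM in the knockout-labelled ones. The unstimulated knockout-labelled library thus lay inside the stimulated range, and only the wild-type one lay below it. The fitted log2 change was 0.15 (SE 0.0616, limma adjusted p = 0.0469), and it turned to -0.014 (adjusted p = 0.797) without the unstimulated wild-type library. With median-of-ratios scaling the value was 0.32 (adjusted p = 0.000237).

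Mnt, the broadly expressed antagonist, was at 13.5 FPKM in the wild-type library without stimulation and 19.9 FPKM in its knockout-labelled counterpart. Wild-type libraries (A to D in turn) had levels of 38.7, 37.1, 37.7 and 40.1 FPKM after anti-IgM, and the knockout-labelled ones held 39.5, 39.3, 38.3 and 37.2 FPKM. All 8 stimulated libraries lay within a narrow band above the unstimulated ones, with the genotypes intermixed. The log2 change was 1.18 (SE 0.0899, limma adjusted p = 2.92e-07), and 1.35 with median-of-ratios scaling. It was 0.92 without the unstimulated wild-type library and 1.44 without the knockout-labelled one. Both lie outside the 95% interval of the fit, 0.98 to 1.38.

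Mxd4 was the most abundant antagonist before stimulation, at 20.4 FPKM for wild type and 23.4 FPKM for the knockout-labelled library. After anti-IgM it was at 5.85, 3.62, 4.94 and 6.00 FPKM in the wild-type set, A to D in order, and at 5.19, 5.44, 4.04 and 4.55 FPKM in the knockout-labelled ones. Each stimulated library was well below both unstimulated ones, and the 2 genotypes overlapped. Its log2 change was -1.95 (SE 0.146, limma adjusted p = 2.56e-07), or -1.79 with median-of-ratios scaling, and 1.67% of tested genes fell as much or more. Mxd4 shares 514 exon bases with a gene annotated on the opposite strand, Gm42846, which has no row in the table.

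Mxi1, an antagonist of the same group, went from 8.83 FPKM in the wild-type library without stimulation to 3.0, 3.03, 3.17 and 3.15 FPKM in libraries A to D. In the knockout-labelled libraries it went from 11.5 FPKM to 2.56, 2.88, 2.89 and 2.90 FPKM. The stimulated libraries were all far below the unstimulated ones, and the knockout-labelled ones lay just under the wild-type ones without overlap. The log2 change with anti-IgM was -1.49 (SE 0.0938, limma adjusted p = 5.77e-08), or -1.34 with median-of-ratios scaling.

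Mxd1, known for its induction in differentiating cells, stood at 5.91 and 7.53 FPKM in the unstimulated libraries, wild type and labelled knockout. It was at 5.21, 5.04, 5.06 and 5.78 FPKM in the stimulated wild-type set, A to D in order, and at 6.56, 5.93, 6.85 and 5.54 FPKM in the knockout-labelled ones. The unstimulated wild-type value fell inside the range of the stimulated libraries. Its fitted log2 change, -0.19 (SE 0.0794, limma adjusted p = 0.0435), was close to the shift of all genes. It was -0.039 (adjusted p = 0.668) with median-of-ratios scaling, and with quantile normalization the sign turned (0.18, adjusted p = 0.0587). Mxd3, an antagonist known from dividing cells, was at 0.73 and 0.68 FPKM unstimulated and between 0.12 and 0.72 FPKM in the 8 stimulated libraries. Fitted only without the filter on low values, Mxd3 had a log2 change of -0.41 with anti-IgM (SE 0.139, limma adjusted p = 0.0319). Its exons share 105 bases with Prelid1 on the opposite strand, which averaged 82.1 FPKM, and the use of strand in counting is not stated.

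Mlx went from 17.0 FPKM in the wild-type library without stimulation to 10.2, 9.24, 8.09 and 8.34 FPKM in libraries A to D. From 18.8 FPKM it went to 6.71, 8.01, 8.31 and 7.70 FPKM in the knockout-labelled libraries. The fall was present in all 8 stimulated libraries, and its size on the log2 scale was -1.03 (SE 0.101, limma adjusted p = 2.56e-06) and -0.86 with median-of-ratios scaling. Psmc3ip, on the opposite strand with 385 shared exon bases, averaged 2.51 FPKM.

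**Figure D2:**
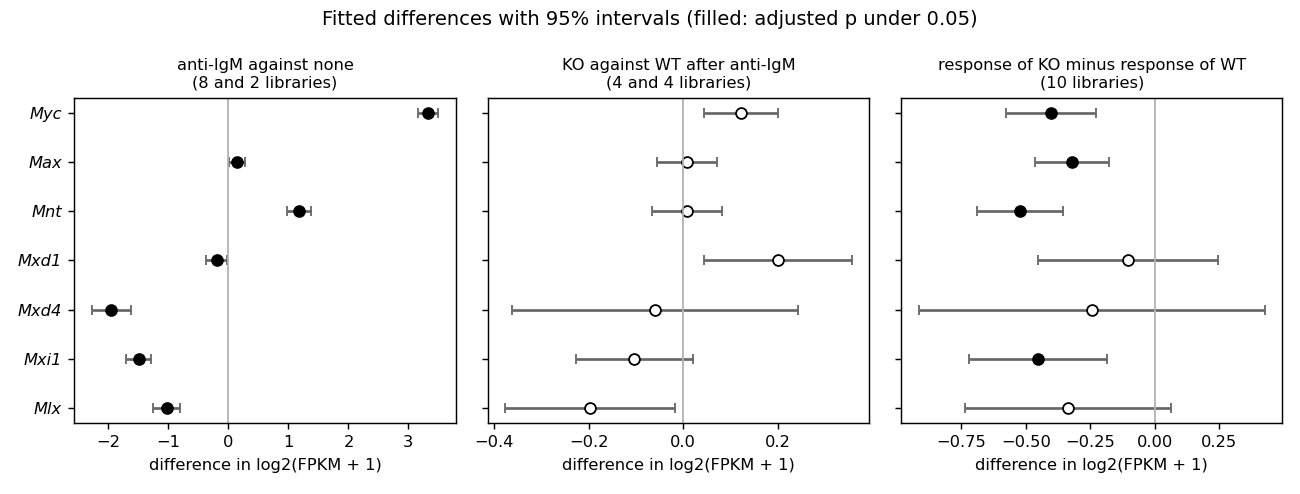
Differences in log2(FPKM + 1) (horizontal axes) for the 7 tested members in 3 comparisons, as fitted with limma, with 95% intervals and filled points for an adjusted p under 0.05. All 7 are filled for anti-IgM against none, 0 for the genotypes after anti-IgM, and 4 (Myc, Max, Mnt and Mxi1) for the difference in response.

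FPKM is scaled per length, so levels can be set against each other within a library. Before stimulation the order in wild type was Myc, Max, Mxd4, Mlx, Mnt, Mxi1, Mxd1 and Mxd3, and in the knockout-labelled library Mnt and Mlx changed places. After anti-IgM it was Myc, Max, Mnt, Mlx, Mxd1, Mxd4, Mxi1 and Mxd3 in both genotypes. Neighbours with overlapping ranges were Mxd1 and Mxd4 in wild type (5.04 to 5.78 and 3.62 to 6.00 FPKM) and Mlx and Mxd1 in knockout-labelled libraries (6.71 to 8.31 and 5.54 to 6.85 FPKM). The ratio of Myc to Max was 1.16 in the unstimulated wild-type library and 1.33 in its knockout-labelled counterpart. It was 10.96 ± 0.447 in stimulated wild type and 11.9 ± 0.162 in the knockout-labelled ones (SD, n = 4 each).

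The makeup of the summed level of the 5 antagonists changed more than the sum. The sum was 49.4 FPKM in unstimulated wild type and 52.1 ± 2.69 FPKM after anti-IgM, and 63.0 FPKM and 52.7 ± 1.80 FPKM in the knockout-labelled libraries (SD, n = 4 each). Mnt made up 27.3% of that sum in unstimulated wild type and 31.6% in the unstimulated knockout-labelled library, and between 72.4% and 75.7% in the stimulated libraries. Mxd4 went from 41.4% and 37.1% to between 7.39% and 11.01%. Mxi1 went from 17.9% and 18.3% to between 4.74% and 6.21%. The share of Mxd1 stayed between 9.81% and 13.1% in all 10 libraries. Relative to this sum, Myc went from 1.24 and 1.41 to between 13.3 and 15.8.

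**Figure D3:**
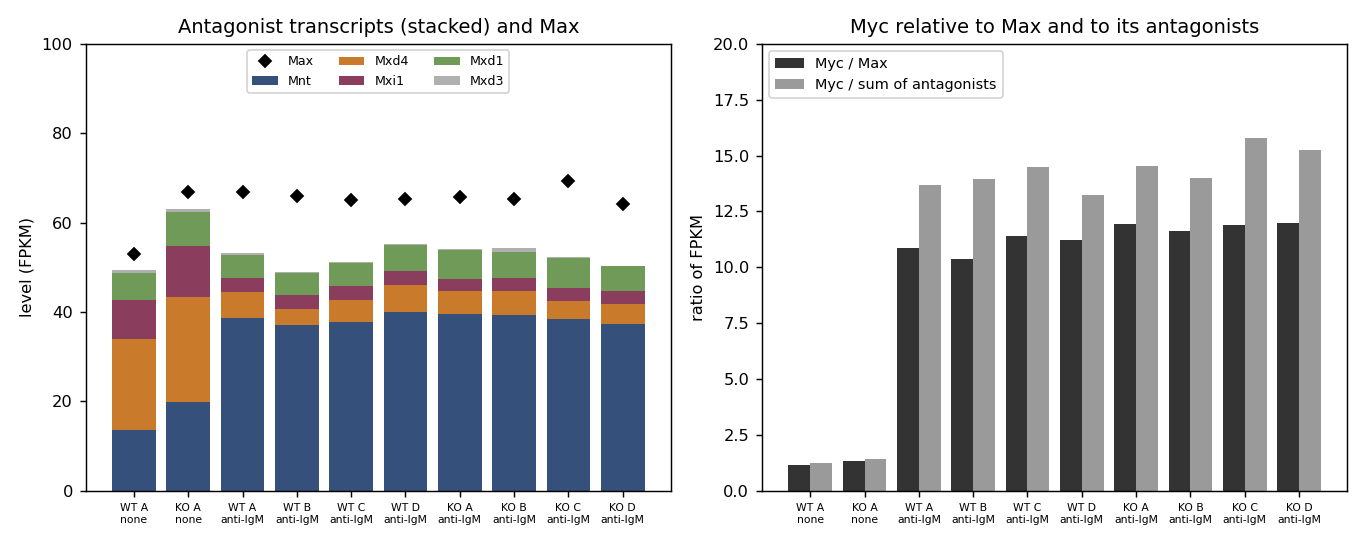
Left, FPKM of the 5 antagonists stacked for each library, with Max as diamonds. Right, the ratio of Myc FPKM to Max FPKM and to the antagonists' sum. The stacks run from 49.0 to 63.0 FPKM, Mnt fills between 72.4% and 75.7% of them after anti-IgM, and the ratio of Myc to Max goes from 1.16 and 1.33 to at least 10.4.

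Other genes of the network were followed as a fixed list. Mycn, Mycl and Mlxipl were at 0.26 FPKM or less in every library, so Myc was the detected gene of the Myc family and Mlxip the detected Mondo gene. Mlxip, a partner of Mlx, was at 41.6 and 45.2 FPKM unstimulated and at 41.8 ± 1.48 and 42.0 ± 2.47 FPKM after anti-IgM in wild type and labelled knockout (SD, n = 4 each). Its log2 change was -0.050 (95% interval -0.17 to 0.071, limma adjusted p = 0.417), and 0.12 with median-of-ratios scaling (adjusted p = 0.0401). Mga, a Max partner of a repressive complex, rose from 32.6 and 30.1 FPKM to 39.1 ± 1.65 and 38.1 ± 1.67 FPKM (SD, n = 4 each), which limma fitted as 0.29 on the log2 scale (adjusted p = 0.000243).

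Genes known to be raised by Myc were higher after anti-IgM. All 32 listed genes were tested and all 32 passed as higher, beside 31.2% of all tested genes. In 26 of them the log2 change was at least 1, beside 7.94% of all tested genes. The median was 1.29 against -0.17 over all tested genes. The list was chosen with earlier results of these data known. Without the unstimulated knockout-labelled library, 31 passed. Srm, which makes the polyamine spermidine, rose from 28.6 and 39.7 FPKM to 165 ± 3.37 and 161.5 ± 4.82 FPKM (SD, n = 4 each), which limma fitted as 2.24 on the log2 scale (adjusted p = 9.57e-10). Nolc1, a nucleolar chaperone, rose by 1.97 (limma adjusted p = 7.94e-11). The part of Myc in these changes was not tested.

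Of the 12 genes known to be lowered by Myc, 8 were tested, where 5 fell and 1 rose, with a median of -0.69. Over all tested genes 47.7% fell and 31.2% rose, so the falls are not far from the background. With median-of-ratios scaling 5 of the list fell and 3 rose. The cell cycle inhibitor Cdkn1b fell from 84.1 and 94.5 FPKM to 20.1 ± 1.33 and 19.4 ± 0.814 FPKM (SD, n = 4 each), which limma fitted as -2.12 on the log2 scale (adjusted p = 2.82e-10). Gadd45a, a stress response gene, fell by 1.88 on the log2 scale (limma adjusted p = 7.1e-08). Gadd45b, its relative, rose by 2.47 (limma adjusted p = 7.45e-11). Among known targets of Mlx and its Mondo partners, 6 of 8 were tested, of which 3 rose and 2 fell. This count stands beside the same 31.2% higher and 47.7% lower. The arrestin-like genes Txnip (log2 change -1.77, limma adjusted p = 1.45e-09) and Arrdc3 (-2.59, adjusted p = 1.36e-10) fell, whereas hexokinase gene Hk2 (1.89, adjusted p = 5.96e-10) and Klf10 (2.31, adjusted p = 1.77e-11) rose.

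The counts that follow stand beside 31.2% higher and 47.7% lower over all tested genes, to which the corepressor and turnover counts come close. Of 12 Myc coactivators and partners, 8 rose and 0 fell (median 0.34), led by the helicase genes Ruvbl2 (1.22, limma adjusted p = 1.13e-08) and Ruvbl1 (1.204, adjusted p = 2.77e-09). Of 12 corepressor genes used by the Mxd proteins and Mnt, 3 rose and 4 fell (median -0.069). Rbbp7, a histone-binding subunit, rose by 1.01 (limma adjusted p = 3.46e-09) and Sap30 by 0.44 (adjusted p = 0.000118), while Arid4a fell by 1.19 on the log2 scale (adjusted p = 4.16e-08) and Suds3 by 0.49 (adjusted p = 1.11e-05). Among 12 genes that act on Myc protein turnover, 5 rose and 4 fell (median -0.026). Usp36, a deubiquitinase known to stabilise Myc, rose by 1.55 (limma adjusted p = 8.95e-10), Set rose by 1.09, Bin1 (-1.34) fell, and the kinase gene Gsk3b (-0.87) fell.

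**Figure D4:**
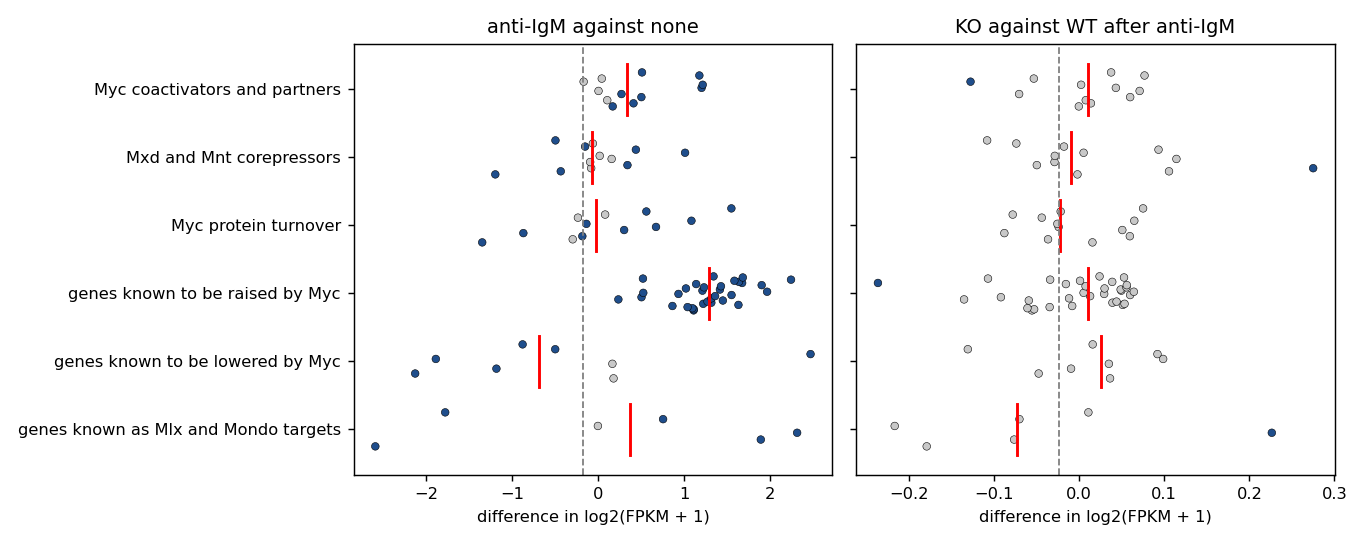
Differences in log2(FPKM + 1) for the tested genes of 6 lists, with anti-IgM against none on the left and knockout-labelled libraries against wild type after anti-IgM on the right. Dark points passed at an adjusted p under 0.05, red bars are list medians and dashed lines the median of all tested genes. On the left all 32 genes known to be raised by Myc lie above 0, and on the right few points of any list are dark.

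The genotypes were then compared over the 4 and 4 stimulated libraries. Between them the T cell marker sum, with most markers under 1 FPKM, and the plasma cell marker sum also did not overlap. The markers that carry the plasma cell sum are not given here, and that sum also rose with anti-IgM. Whether cell numbers differed was not tested. None of the 7 tested members passed, beside 9.72% of all tested genes, 3.91% higher and 5.81% lower (limma, adjusted p under 0.05), while 3 members had an unadjusted p under 0.05, Myc, Mxd1 and Mlx. Myc was at 720.4 ± 25.4 FPKM for wild type and 784 ± 30.1 FPKM for the knockout-labelled libraries (SD, n = 4 each), 1.09 times the wild-type mean. The log2 difference was 0.12 (SE 0.0350, 95% interval 0.044 to 0.20, limma adjusted p = 0.0610), with a range of adjusted p from 0.0395 to 0.137 over the alternatives, 3 of 21 of them under 0.05. The libraries of Myc and of Mxi1 did not overlap, 2 of 7 members beside 15.5% of all tested genes. For both, the exact permutation test (two-sided) gave p = 0.0286, the lowest value possible with 70 labellings. Any gene without overlap gets this value, so it adds nothing to the lack of overlap.

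Mxi1 was at 3.09 ± 0.0850 FPKM for wild type and 2.81 ± 0.165 FPKM for the knockout-labelled ones (SD, n = 4 each), a log2 difference of -0.10 (95% interval -0.23 to 0.022, limma adjusted p = 0.322). Mxd1 was at 5.27 ± 0.347 and 6.22 ± 0.594 FPKM (SD, n = 4 each; 0.20, 95% interval 0.045 to 0.36, limma adjusted p = 0.116). Mlx was at 8.96 ± 0.946 and 7.68 ± 0.695 FPKM (SD, n = 4 each; -0.20, 95% interval -0.38 to -0.016, limma adjusted p = 0.184). The ranges of Mxd1 and of Mlx overlapped between genotypes, and their exact permutation p was 0.0571 each. For Max (0.0083, 95% interval -0.055 to 0.072) and Mnt (0.0081, 95% interval -0.065 to 0.081) the intervals were narrow around 0, and for Mxd4 the interval was wide (-0.060, -0.36 to 0.24). Mxd3, fitted only without the filter on low values, differed by 0.032 (SE 0.138, limma adjusted p = 0.956).

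Over all tested genes, 3.91% were higher and 5.81% lower in the knockout-labelled libraries, with a median of -0.024. Of 32 genes known to be raised by Myc, 0 were higher and 1 was lower, with a median of 0.010. That gene was Rcc1, a regulator of nuclear transport, at 50.8 ± 1.63 FPKM for wild type and 43.0 ± 1.01 FPKM for the knockout-labelled ones (SD, n = 4 each; log2 difference -0.24, limma adjusted p = 0.00111). The corepressor gene Hdac1 was higher, at 76.1 ± 1.48 and 92.3 ± 1.56 FPKM (SD, n = 4 each; 0.27, limma adjusted p = 0.000105). Klf10 was also higher (0.23, limma adjusted p = 0.000271), and Smarcb1, a chromatin remodeller subunit, was lower (-0.13, limma adjusted p = 0.0292). With median-of-ratios scaling Smarcb1 no longer passed (-0.094, adjusted p = 0.149), while 1 coactivator gene and a total of 2 corepressor genes were called higher. None of the tested genes passed among those known to be lowered by Myc or those of Myc turnover. With lists of this size, counts of 0 or 1 do not stand apart from the shares over all tested genes.

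Before stimulation, 7 of the 8 members were higher in the knockout-labelled library than in the wild-type library, each a single library, where 59.2% of all tested genes were also higher in it. The ratio was 1.45 for Myc, 1.26 for Max, 1.48 for Mnt, 1.31 for Mxi1, 1.27 for Mxd1, 1.14 for Mxd4 and 1.11 for Mlx. On the log2 scale Myc differed by 0.53 and Mnt by 0.53, where the median over tested genes was 0.067 with an SD of 0.38, and 3.50% of them differed upward as much as Myc. After anti-IgM these gaps were smaller in size except for Mlx (0.14 before and -0.20 after on the log2 scale), and the response of each member is therefore set out by genotype. Myc rose by 3.53 in wild type and by 3.13 in the knockout-labelled libraries, and Mnt by 1.44 and 0.92. The change of Max was 0.31 and -0.014, that of Mxi1 was -1.27 and -1.72.

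The difference between these responses was fitted with limma over all 10 libraries, which assumes that the single unstimulated libraries vary like the stimulated ones. It passed for 4 of 7 members, 4 of them lower in the knockout-labelled libraries, beside 18.9% of all tested genes (14.7% lower and 4.18% higher). The difference was -0.40 for Myc (SE 0.0777, limma adjusted p = 0.0084), -0.52 for Mnt (SE 0.0742, adjusted p = 0.00305), -0.32 for Max (SE 0.0635, adjusted p = 0.00925) and -0.45 for Mxi1 (SE 0.119, adjusted p = 0.0288). For Mxi1, which fell with stimulation, this is a larger fall. Mxd1 (-0.10, limma adjusted p = 0.693), Mxd4 (-0.24, adjusted p = 0.618) and Mlx (-0.34, adjusted p = 0.222) did not pass. With median-of-ratios scaling only Mnt passed (-0.44, adjusted p = 0.00935), with 0.0586 for Myc, 0.0649 for Max and 0.0683 for Mxi1. On that scale 1351 of the 10225 tested genes passed, 788 of them lower. Rescaling to the same sum made the differences larger, at -0.58 for Myc, -0.50 for Max, -0.64 for Mxi1 and -0.70 for Mnt, and all 4 passed. The median difference over all genes was -0.096 on the deposited scale, and the unstimulated wild-type library had the largest FPKM sum. Its part in the result was not tested.

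In the lists, beside the same 14.7% lower and 4.18% higher over all tested genes, 5 of 12 coactivators, 5 of 12 turnover genes, 3 of 8 genes known to be lowered by Myc and 2 of 6 Mlx and Mondo targets were lower, and 0 of each were higher. With median-of-ratios scaling these became 3, 0, 1 and 1 lower, where 788 of the 10225 tested genes were lower and 563 higher. Of 12 corepressors 1 was higher and 2 were lower, which became 2 higher and 1 lower with that scaling. Among genes known to be raised by Myc, 5 were higher and 9 lower, and 5 and 3 with that scaling. Cad, of pyrimidine synthesis, had a smaller response in the knockout-labelled libraries (-0.55, limma adjusted p = 0.00305) and Tfrc, the transferrin receptor gene, a larger one (0.52, adjusted p = 0.00287).

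**Figure D5:**
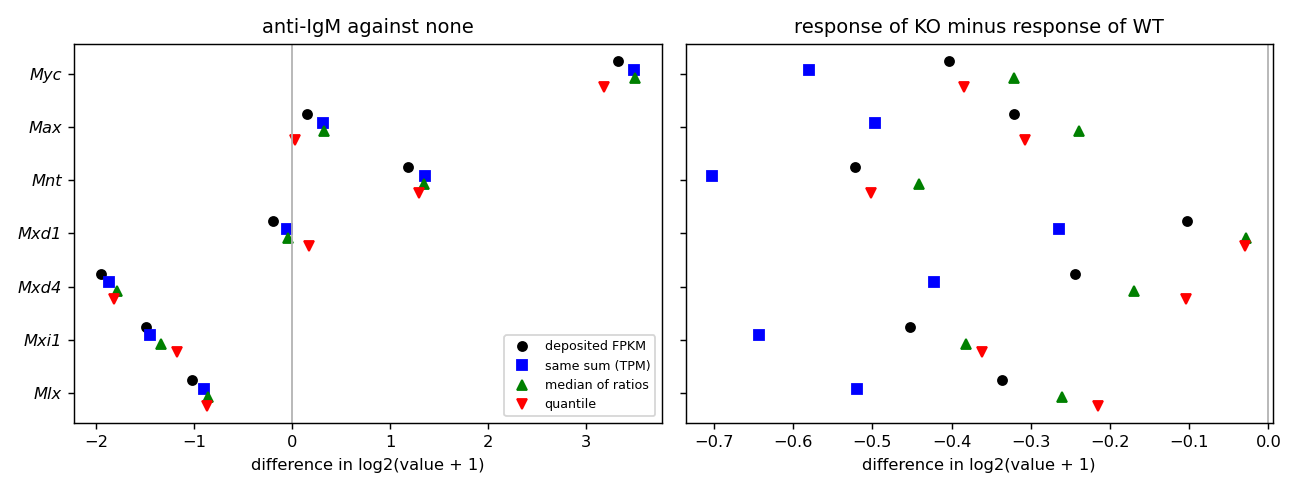
Differences in log2(value + 1) for the 7 tested members under 4 scalings of the table, for anti-IgM against none (left) and for the response of knockout-labelled libraries minus that of wild type (right). Myc, Mnt, Mxd4, Mxi1 and Mlx keep their side of 0 on the left under all 4, Mxd1 turns from -0.19 to 0.18 with quantile normalization, and on the right the size for Mnt runs from -0.44 to -0.70.

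Genes whose pattern over the 10 libraries was most like that of a member were listed by Pearson r on log2(FPKM + 1), among 7162 genes averaging 5 FPKM or more. For Myc, Mnt, Mxd4, Mxi1 and Mlx the points share the gap between 2 unstimulated and 8 stimulated libraries. For Max, Mxd1 and Mxd3 an unstimulated library lay inside the stimulated range. Close to Myc were Kdm2b (r = 0.9998) and Rrp9 (r = 0.9997, n = 10 libraries). Nearest to Mnt were Atxn7l3, Taf1c and Scamp4 (0.998 to 0.999), to Mxi1 Arnt, Zadh2 and Ifngr2 (0.996), and to Mxd4 Itch, Mapk1ip1 and Zfp318 (0.991 to 0.994). For Mlx they were Txndc12, Add1 and Cdkn2aip (0.988 to 0.989). Max, with little change, was like Ube2z and Ctbp1 (0.966 and 0.956), Mxd1 most like Mrpl4, Rrad and Cobll1 (0.914 to 0.928), and Mxd3 most like Xrcc1, Rrm1 and Apitd1 (0.906 to 0.948).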

How the data were processed

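The authors deposited 1 table of FPKM values for 17658 genes in 10 libraries. The submitters' processing notes list STAR 2.4, RSEM 1.2.14 and mm10, and the gene models, any filtering and strand handling are not given in the sources used here. All columns matched 1 sample each. FPKM are not counts, so no count model was fitted. Values were transformed as log2(FPKM + 1), and log2 changes understate those of low genes. The 10225 genes averaging 1 FPKM or more were fitted with limma 3.58.1 in R 4.3.3 (eBayes with trend). Tests were two-sided, with Benjamini-Hochberg adjustment over all tested genes and calls at an adjusted p under 0.05. The approach was checked on simulated data, which cannot show how much unstimulated libraries vary. Stimulation used all 10 libraries with genotype as a term, the genotype comparison the 8 stimulated ones, and the difference in response 4 group means. The members and lists were chosen with earlier results of these data known. Members were reported in full, and list genes from the 2 largest called rises and falls of each list in each comparison. The listed genes were all found in the table, except for 2 cell type markers, some under older symbols matched through the RefSeq gene table. Positions use GRCm38 (mm10), with promoters from RefSeq GRCm38.p6 and exon overlaps from GENCODE M21. Alternatives covered pseudocount, filter, scaling, eBayes options, array weights, the letter as a block and each library left out. List counts without an unstimulated library or with another scaling were added after seeing the data. Some genes that the rule for likeness to a member names are not reported here.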

Additional observations from a re-analysis of the deposited data

Results flagged for a closer look

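Of 22 groups of 4 stimulated libraries examined (the 8 members and 3 sums or ratios, each genotype on its own), 1 held a library far from the other 3, where chance gives about 1 in 20, or 1.10 here. This was Mxi1 in knockout-labelled library A, at 2.56 FPKM where the others held 2.88 to 2.90.

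The difference in response to anti-IgM between the genotypes passed for 4 of 7 tested members. This used the interaction term of the limma fit over 10 libraries, where 18.9% of all tested genes passed. The response in the knockout-labelled libraries minus that in wild type was -0.40 for Myc, -0.32 for Max, -0.45 for Mxi1 and -0.52 for Mnt on the log2 scale. Each rests on 1 unstimulated library per genotype, and with median-of-ratios scaling only Mnt passed.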

How the results depend on the processing

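The changes of Myc, Mnt, Mxd4, Mxi1 and Mlx with anti-IgM kept direction and call in every alternative run that tested them. Mxd1 turned to 0.18 with quantile normalization and Max to -0.014 without the unstimulated wild-type library (leave-one-out range -0.014 to 0.31), and their calls were lost in 15 and 12 further alternatives. With a mean of at least 5 FPKM, 2 members were called lower, Mxi1 being no longer tested and Mxd1 no longer passing (adjusted p = 0.0535). Requiring a log2 change of at least 1 left 2078 genes called with anti-IgM in place of 8069. The split of calls was 39.5% higher on the deposited scale and 50.2% with median-of-ratios scaling.

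Between the stimulated genotypes, 1 member, Myc, was called higher with a mean of at least 5 FPKM, with robust estimation and with the replicate block (adjusted p = 0.0395). In these settings 921 of 7683, 1040 of 10225 and 740 of 10225 tested genes passed in either direction. The letters did not pair the libraries: same-letter correlations ran from -0.122 to 0.0445, and 0 of 4 wild-type libraries correlated best with their own letter. The share of calls that were higher was 40.2%, and 57.2% with median-of-ratios scaling. With 1 library left out the small differences changed sign, from -0.19 to 0.013 for Mxd4, from -0.0080 to 0.029 for Mnt and from -0.015 to 0.023 for Max; sign changes came without wild-type A or D or knockout-labelled C (Mxd4), without wild-type B or knockout-labelled A or B (Mnt) and without knockout-labelled C (Max).

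For the difference in response, 1 member was called with median-of-ratios scaling in place of 4. All genes called were 1931, against 3630 after rescaling to the same sum, 3634 with immunoglobulin genes left out first and 1238 with the replicate block. The cause was not tested. The call of Mxi1 was also lost with quantile normalization and with the block. Among list counts with anti-IgM, those that moved by more than 1.5 times were as follows: with median-of-ratios scaling 2 other network genes, 5 corepressor genes and 3 genes known to be lowered by Myc were higher, and 2 turnover genes lower. Without the unstimulated wild-type library 1 coactivator gene was lower, and without the knockout-labelled one 2 genes known to be lowered by Myc were higher.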
